A study of Mus musculus with 2 samples.

Results

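The genes described here encode the proteins that carry a methyl-CpG binding domain (Mbd1 to Mbd6) or belong to the Kaiso family of zinc finger proteins (Zbtb33, Zbtb4 and Zbtb38). They were found by symbol in the deposited expression table, in which an entry can hold several gene symbols, and 9 of 9 were present with 1 entry each among 29126 entries in all. All 9 entries had the status OK, which Cuffdiff (the program that estimated expression) gives to an entry with enough reads. All 9 also passed the minimum used here, 1 RPKM in at least 1 of the 2 libraries. RPKM, the unit of the deposited values, corrects a read count for transcript length and for sequencing depth.

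Cytosine methylation at CpG is read by proteins that bind the methylated base and bring repressive complexes to it. Mbd1, Mbd2 and Mbd4 bind methylated CpG through their methyl-CpG binding domain, whereas the related domain of mammalian Mbd3, Mbd5 and Mbd6 does not select the methylated form. Kaiso, encoded by Zbtb33, and its relatives Zbtb4 and Zbtb38 bind methylated DNA through zinc fingers, and Kaiso also recognises an unmethylated motif.

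Strand-specific mRNA-seq was performed on 1 library of Dnmt1+/+ and 1 library of Dnmt1-/- mouse embryonic fibroblasts (MEFs). In the cells called Dnmt1-/- both copies of Dnmt1, the gene of the maintenance methyltransferase, are of a hypomorphic type (n/n), and the cells of both genotypes also lack Trp53, which encodes p53. The labels give the strain as unknown and no age, treatment or time. Since each genotype has 1 library, differences could be neither tested nor compared with a replicate spread, and each value describes these 2 libraries. The deposited RPKM values carry no read counts, so the depth behind each value was not computed here and no counting interval is given.

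For Dnmt1 itself, 65.2 RPKM were measured in Dnmt1+/+ and 14.5 in Dnmt1-/-. Of 8 fibroblast markers, 8 reached 1 RPKM in Dnmt1+/+ and 7 in Dnmt1-/-, with a summed RPKM of 5999 and 3714. The exception, Thy1, had 4.84 RPKM in Dnmt1+/+ and 0.129 in Dnmt1-/-. None of 4 epithelial and 4 endothelial markers reached 1 RPKM in either library. Their summed RPKM was 0.286 and 0.736 for the epithelial and 0.461 and 0.679 for the endothelial list. Of 4 leukocyte markers, Ptprc and Emr1 were listed at 0 in both libraries, and the summed RPKM was 0.596 in Dnmt1+/+ and 3.65 in Dnmt1-/-, nearly all from Cd68. The 4 neural markers summed to 16.9 and 13.1 RPKM, nearly all from Tubb3. The libraries also differed in sex-linked genes. The 4 Y-linked genes kept, Eif2s3y, Ddx3y, Kdm5d and Uty, lay between 3.71 and 18.8 RPKM in Dnmt1+/+, whereas in Dnmt1-/- the first 3 were listed at 0 and Uty at 0.0135. Xist, the RNA that coats the inactive X chromosome, had 0.00648 RPKM in Dnmt1+/+ and 37.0 in Dnmt1-/-. The labels give no sex, and with 1 library each a difference between the lines of this kind cannot be told apart from one of the Dnmt1 genotype. The part of these differences in the results below was not tested, and in such bulk libraries fewer cells of a type cannot be told apart from less RNA per cell.

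The 9 genes covered a wide range of mRNA levels in both genotypes. In Dnmt1+/+ MEFs the order by RPKM was Mbd3, Mbd2, Mbd1, Zbtb38, Mbd6, Zbtb33, Mbd4, Mbd5 and Zbtb4, from 124.6 down to 2.63 RPKM. In Dnmt1-/- MEFs the order was Mbd3, Mbd2, Zbtb38, Mbd1, Mbd6, Zbtb4, Zbtb33, Mbd4 and Mbd5, from 146.4 down to 1.81 RPKM. Mbd3 and Mbd2 thus held the first and second place in both libraries, and together they made up 77.3% of the summed RPKM of the 9 genes in Dnmt1+/+ and 74.8% in Dnmt1-/-. Which neighbours in this order differ beyond replicate spread cannot be said with 1 library each.

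**Figure D1:**
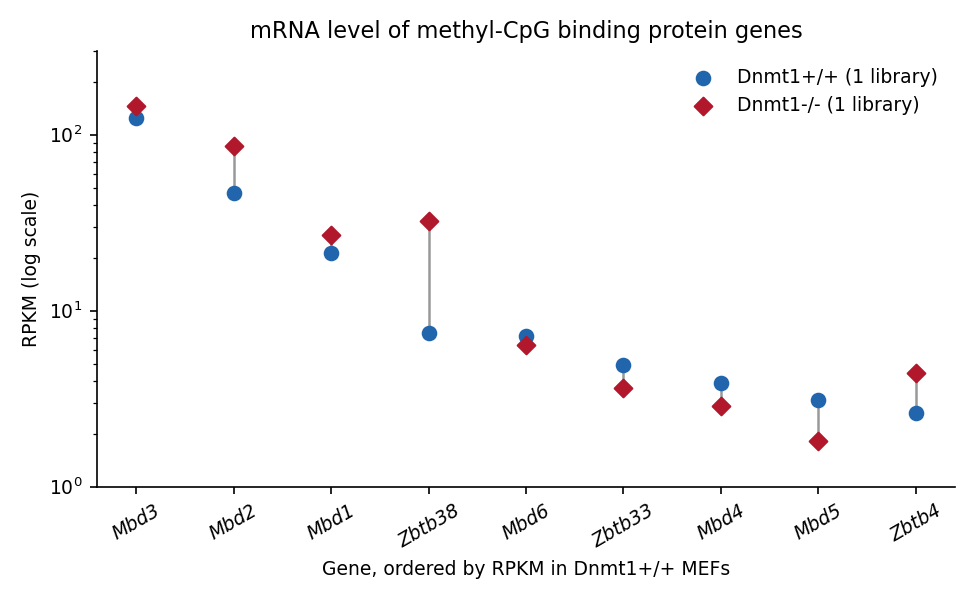
RPKM (log scale) of each of the 9 genes in the Dnmt1+/+ library (circles) and the Dnmt1-/- library (diamonds), with a line joining the 2 values of a gene. The longest line is that of Zbtb38, from 7.50 to 32.4 RPKM, and Mbd3 is highest in both libraries.

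The summed RPKM of the 9 genes was 221.7 in Dnmt1+/+ and 310.7 in Dnmt1-/-, a ratio of 1.40. Changes were taken on the log2(RPKM + 0.1) scale as Dnmt1-/- minus Dnmt1+/+, where the added 0.1 makes changes of weakly expressed genes look smaller. Of the 9 genes, 5 had a positive and 4 a negative log2 change, and their median was 0.23. Over the 11244 genes with a symbol, status OK and at least 1 RPKM in a library, the median was -0.14 and 40.4% had a positive change. The Mbd genes summed to 206.6 RPKM in Dnmt1+/+ and 270.3 in Dnmt1-/-, and the Zbtb genes to 15.1 and 40.4. The Zbtb difference came almost wholly from the Zbtb38 entry, which is shared with another gene, and Zbtb33 and Zbtb4 alone summed to 7.56 and 8.02 RPKM.

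More than 2-fold higher in Dnmt1-/- was 1 of the 9 genes, Zbtb38, against 8.47% of the 11244 genes. None of the 9 was more than 2-fold lower, against 10.9% of the 11244 genes. Among the 9174 genes whose mean RPKM lay within the range spanned by the members, from 2.46 to 135.5, the shares were 6.04% higher and 8.4% lower. At 1.5-fold, 3 of the 9 genes were higher (Zbtb38, Mbd2 and Zbtb4), where 14.1% of all genes kept were. In the other direction 1 of 9, Mbd5, was lower, and 23.7% of all genes kept were. The number more than 2-fold higher was 2 relative to the median of all genes kept, with Mbd2 as the other gene, and 0 of 8 without the Zbtb38 entry, which is shared with another gene.

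**Figure D2:**
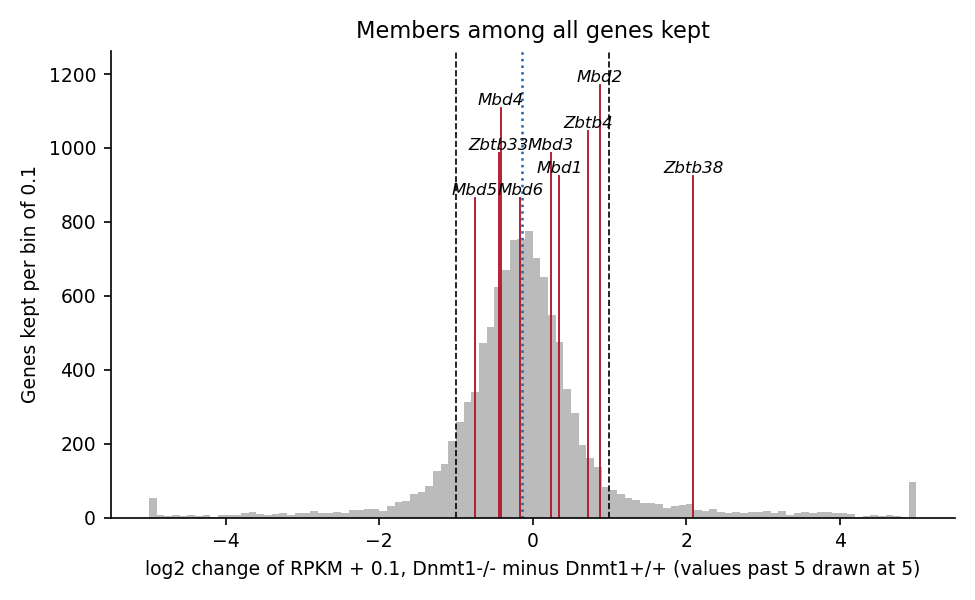
Histogram of the log2 change of 11244 genes kept (grey, number of genes per bin of 0.1), with a red line at the change of each of the 9 genes, dashed lines at 2-fold and a dotted line at the median of all genes, -0.14. Only Zbtb38, at 2.09, lies outside the dashed lines, and Mbd2, at 0.88, is nearest to the upper one from within.

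Mbd2 and Mbd3 are alternative subunits of the NuRD complex, which joins histone deacetylase and nucleosome remodelling activities, with Mbd2 providing the contact with methylated CpG. Mbd2, whose entry lies at chr18:70727930-70785785 in mm9 (NCBI37), had 46.7 RPKM in Dnmt1+/+ and 85.8 in Dnmt1-/-. It was 1.84-fold higher, a log2 change of 0.88 that was above those of 90.5% of the genes kept. Relative to the median of all genes kept it came to 1.02 and so lay just past 2-fold. Mbd3, at chr10:79855286-79862224, had 124.6 RPKM in Dnmt1+/+ and 146.4 in Dnmt1-/-, a log2 change of 0.23. Its level exceeded that of 95.8% of the genes kept in Dnmt1+/+ and 96.4% in Dnmt1-/-. The ratio of Mbd3 to Mbd2 mRNA was 2.67 in Dnmt1+/+ and 1.71 in Dnmt1-/-.

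The other NuRD genes showed smaller differences than Mbd2 in the upward direction. Of 15 listed, 13 were kept, of which 5 had a positive and 8 a negative change, and none was past 2-fold. Their median log2 change was -0.18 and their range -0.85 to 0.21. The highest level was that of Rbbp7, a histone-binding subunit, with 167.6 RPKM in Dnmt1+/+ and 193.6 in Dnmt1-/-. The lowest change was that of Hdac1, a catalytic subunit, with 28.8 and 15.9 RPKM, while its paralog Hdac2 had 152.4 and 134.4.

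Mbd1 combines a methyl-CpG binding domain with CXXC zinc fingers and is known as a partner of the H3K9 methyltransferase Setdb1. Its entry, at chr18:74427868-74442361, had 21.2 RPKM in Dnmt1+/+ and 27.0 in Dnmt1-/-, a log2 change of 0.35. Of 9 genes listed as Mbd1 partners or heterochromatin factors, 8 could be compared, with 4 positive and 4 negative changes and a median of 0.05. Suv39h1, an H3K9 methylating enzyme encoded on the X chromosome, was more than 2-fold higher, at 15.6 RPKM in Dnmt1+/+ and 38.3 in Dnmt1-/- (log2 change 1.29). Its paralog Suv39h2 had 3.64 and 3.0 RPKM. Cbx3, encoding HP1 gamma, had the highest level of this list, 136.9 and 104.9 RPKM. Setdb1 carried the status FAIL and was listed at 0 in both libraries, so it could not be compared, and Atf7ip, its cofactor, had 12.5 and 12.4 RPKM.

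Mbd4 is a DNA glycosylase that removes thymine from the T:G mismatches left by deamination of methylated cytosine. At chr6:115790715-115803359, it had 3.86 RPKM in Dnmt1+/+ and 2.87 in Dnmt1-/-, a log2 change of -0.41. In Dnmt1-/- its level was thus 74.4% of that in Dnmt1+/+. Among 13 base excision and mismatch repair genes, 9 had a negative and 4 a positive change, none was past 2-fold, and the median was -0.30. Tdg, the other mammalian thymine glycosylase of T:G mismatches, had 21.2 RPKM in Dnmt1+/+ and 18.7 in Dnmt1-/-. Apex1, the endonuclease that cuts the abasic site left by these enzymes, had the highest level, 85.3 and 53.3 RPKM. The flap endonuclease Fen1 went in the other direction, with 33.2 and 61.5 RPKM.

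Mbd5 and Mbd6 bind the PR-DUB complex, in which Bap1 removes ubiquitin from histone H2A. Mbd5, a long gene at chr2:48805028-49172589, had 3.12 RPKM in Dnmt1+/+ and 1.81 in Dnmt1-/-. This log2 change of -0.75 was the lowest of the 9 genes, and 17.3% of all genes kept had a lower one. Mbd6 had 7.15 RPKM in Dnmt1+/+ and 6.37 in Dnmt1-/-, a log2 change of -0.16 that was close to the median of all genes. Mbd5 mRNA was thus 0.436 of the Mbd6 level in Dnmt1+/+ and 0.284 in Dnmt1-/-. The locus given for Mbd6, chr10:126703318-126726115, is shared with Dctn2, a dynactin subunit gene on the opposite strand, which had 129.7 and 117.4 RPKM and is listed with the same start and end. Dctn2 is annotated from 126703442 to 126718862 and Mbd6 from 126719012 to 126726074. The listed locus thus covers both genes whole, and neither how reads were divided between their entries nor whether read strand was used in counting is stated. The Mbd6 value, its ratio to Mbd5 and its place in the order of levels are therefore uncertain.

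Of 9 PR-DUB genes, 8 were kept, with 6 negative and 2 positive changes and a median of -0.31. Bap1 had 25.5 RPKM in Dnmt1+/+ and 26.5 in Dnmt1-/-. Ogt, the X-linked gene of the O-GlcNAc transferase, was more than 2-fold lower, with 31.2 RPKM in Dnmt1+/+ and 13.9 in Dnmt1-/- (log2 change -1.16). The 394 X-linked genes kept had a median log2 change of -0.39 and the 10846 autosomal genes of -0.13. More than 2-fold lower were 24.9% of these X-linked genes, and more than 2-fold higher were 10.2%. For Ogt, Suv39h1 and the X-linked member Zbtb33, the part of the difference between the libraries in Xist and Y-linked RNA was not tested.

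Zbtb33, the gene of Kaiso, lies on the X chromosome at chrX:35542933-35550223. It had 4.93 RPKM in Dnmt1+/+ and 3.61 in Dnmt1-/-, a log2 change of -0.44 that lay 0.05 under the median of the X-linked genes (a difference of -0.05). Zbtb4, at chr11:69579414-69597528, had 2.63 RPKM in Dnmt1+/+ and 4.41 in Dnmt1-/-, a log2 change of 0.73. Zbtb33 had the higher level in Dnmt1+/+ and Zbtb4 in Dnmt1-/-, with a Zbtb4 to Zbtb33 ratio of 0.534 in Dnmt1+/+ and 1.22 in Dnmt1-/-. Of the 7 genes listed as NCoR and SMRT corepressor subunits or as the Kaiso partner p120 catenin (Ctnnd1), 6 had a negative change and none was past 2-fold, with a median of -0.15. Ctnnd1 had the highest level of these, 67.5 RPKM in Dnmt1+/+ and 63.3 in Dnmt1-/-.

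Zbtb38, also known as CIBZ, showed the largest difference of the 9 genes. The entry had 7.50 RPKM in Dnmt1+/+ and 32.4 in Dnmt1-/-, a 4.31-fold higher level and a log2 change of 2.09. This change was above those of 95.9% of the genes kept. Its level exceeded that of 38.0% of the genes kept in Dnmt1+/+ and of 79.0% in Dnmt1-/-, and its ratio to Zbtb33 was 1.52 and 8.96. The value belongs to a joint entry of Zbtb38 and E030011O05Rik at chr9:96583187-96653250, and it cannot be said which of the genes the additional reads came from. In the NCBI37 annotation both lie on the minus strand, and E030011O05Rik spans 96647700 to 96653146, at the 5′ end of the entry. Its 1799 exonic bases are all annotated as exons of Zbtb38 as well, where they make up 16.3% of 11070 exonic bases.

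RefSeq gives Zbtb38 start sites that lie inside this joint entry and away from its 5′ end, and their promoters are printed because the entry does not resolve from which start its RNA came. Each covers 250 bases before to 50 bases after the start, 5′ to 3′ on the minus strand, with every CpG in capitals. The sequences are those of the RefSeq promoter table (GRCm38.p6), and each was matched without mismatch to a single place in NCBI37, whose positions are given. From upstream to downstream they are 21156, 32981 and 33386 bp from the 5′ end of the entry, and all 3 start sites fall in annotated exons.
Zbtb38 at chr9:96632045-96632344: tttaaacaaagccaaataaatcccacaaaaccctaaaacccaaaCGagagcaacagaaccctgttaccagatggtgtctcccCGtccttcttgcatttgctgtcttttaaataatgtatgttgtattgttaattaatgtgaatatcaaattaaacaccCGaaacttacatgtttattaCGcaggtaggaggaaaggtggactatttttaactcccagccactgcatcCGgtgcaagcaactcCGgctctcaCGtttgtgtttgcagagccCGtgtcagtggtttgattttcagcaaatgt
Zbtb38 at chr9:96620220-96620519: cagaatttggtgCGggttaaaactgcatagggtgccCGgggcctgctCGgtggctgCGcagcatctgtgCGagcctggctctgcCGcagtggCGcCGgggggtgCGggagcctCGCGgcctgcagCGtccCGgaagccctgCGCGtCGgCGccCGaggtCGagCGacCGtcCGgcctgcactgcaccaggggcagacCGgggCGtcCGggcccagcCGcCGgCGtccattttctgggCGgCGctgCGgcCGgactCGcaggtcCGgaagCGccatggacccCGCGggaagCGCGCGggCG
Zbtb38 at chr9:96619815-96620114: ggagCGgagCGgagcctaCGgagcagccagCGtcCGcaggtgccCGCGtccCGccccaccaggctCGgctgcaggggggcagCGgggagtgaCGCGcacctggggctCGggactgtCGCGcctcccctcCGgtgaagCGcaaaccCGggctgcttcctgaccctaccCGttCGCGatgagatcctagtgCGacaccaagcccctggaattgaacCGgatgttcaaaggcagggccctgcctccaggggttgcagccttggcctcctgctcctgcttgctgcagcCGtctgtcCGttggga
The most upstream of these holds 8 CpG and has a GC content of 41.0%, whereas the next ones hold 41 and 25 CpG with 74.7% and 69.0% GC. The CpG-dense windows lie next to each other without overlap.

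Across the family, 7 genes matched the promoter table, with 11 start sites in all. Mbd1 and Mbd2 had no match, so the promoter and motif results do not cover them. A window was called CpG-rich when its GC content was at least 50% and its ratio of observed to expected CpG at least 0.6, and this held for 9 of the 11 windows against 33.5% of 32851 promoters of the same length. Those promoters also include genes not expressed in these cells, unlike the members, and a share among expressed genes was not computed. Zbtb38, Mbd5 and Mbd6 each have more than 1 window, and those of Mbd6 overlap, so the 11 are not independent. The number of CpG ran from 4 to 44 in the members, with a median of 7 over all promoters. The windows that were not CpG-rich were the upstream one of Zbtb38 and an internal one of Mbd5. Zbtb4 and Mbd5 are shown with their outer promoters, as the member with the next largest positive change after Zbtb38 and Mbd2 and the member with the lowest change. Both windows lie on the plus strand and have every CpG in capitals.
Zbtb4 at chr11:69579164-69579463: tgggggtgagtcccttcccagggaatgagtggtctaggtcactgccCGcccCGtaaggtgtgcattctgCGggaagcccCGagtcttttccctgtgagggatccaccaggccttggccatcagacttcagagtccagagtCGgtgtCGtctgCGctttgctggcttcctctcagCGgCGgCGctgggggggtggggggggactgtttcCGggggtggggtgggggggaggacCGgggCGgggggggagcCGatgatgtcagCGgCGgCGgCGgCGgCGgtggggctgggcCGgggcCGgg
Mbd5 at chr2:48804778-48805077: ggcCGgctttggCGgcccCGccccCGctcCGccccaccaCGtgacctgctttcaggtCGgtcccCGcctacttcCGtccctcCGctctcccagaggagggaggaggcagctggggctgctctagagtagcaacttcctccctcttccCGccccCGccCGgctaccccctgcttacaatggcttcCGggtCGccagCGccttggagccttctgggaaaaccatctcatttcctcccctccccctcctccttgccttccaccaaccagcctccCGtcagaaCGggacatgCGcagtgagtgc
The Zbtb4 window holds 22 CpG and that of Mbd5 19, and the internal window of Mbd5 holds 4. The windows of Mbd3, Mbd4 and Zbtb33 hold 22, 25 and 34 CpG, and those of Mbd6 hold 44 and 28. No relation of CpG number to the change was tested.

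The unmethylated motif recognised by Kaiso, TCCTGCNA, was searched in the same windows on both strands. A match was found in 1 of the 11 member windows, that of Mbd3, and in 4.96% of all 32851 promoters. It is printed in capitals with its flanks, on the minus strand of chromosome 10, where the first base of the motif is the first base of the transcript in RefSeq.
Mbd3 motif: agtcagactggTCCTGCGAgcgcgaagggg
In the other 10 member windows these letters did not occur, which says nothing on binding of the factor.

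Beyond the complexes above, the remaining lists of readers and corepressors gave few differences past 2-fold. Of the 10 SIN3 corepressor genes, 7 had a negative change, with a median of -0.30. Arid4b, a SIN3-associated chromatin protein, was more than 2-fold lower at 14.7 RPKM in Dnmt1+/+ and 4.68 in Dnmt1-/- (log2 change -1.63), while its paralog Arid4a had 7.58 and 5.06. Sin3b had the highest level, 94.7 and 57.0 RPKM. CXXC proteins, which bind CpG without methylation, had a median change of -0.31 over the 6 of 7 genes kept, with none past 2-fold. The gene left out, Cxxc4, had 0.311 RPKM in Dnmt1+/+ and 0 in Dnmt1-/-, under the minimum in both. Kdm2a, an H3K36 demethylase, was highest at 31.4 and 25.7 RPKM. A last list held 5 further genes related to the Mbd genes by domain or by name. Of those with a domain like that of the Mbd proteins, Baz2a had 9.59 and 7.57 RPKM, Baz2b 9.03 and 4.94, and Setdb2 5.25 and 7.93. Mbd3l1 and Mbd3l2, named for their likeness to Mbd3, were listed at 0 in both libraries.

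Over all lists, 68 of 75 genes were kept. Chd5, Asxl3 and Cxxc4 had status OK but lay under 1 RPKM in both libraries, and the others left out had another status. Of the 68 genes, 21 had a positive and 47 a negative change, where 59.6% of all genes kept had a negative one. The same share stands beside the sign counts of the single lists above. The median of the 68 was -0.24 against -0.14 over all genes kept. Past 2-fold lay 1 gene in the upward direction (1.47%) and 2 in the downward direction (2.94%), where 8.47% and 10.9% of all genes kept did. Among the genes with a mean RPKM within the range of the members, these shares were lower, 6.04% and 8.4%. A share at the levels of the listed genes themselves was not computed.

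**Figure D3:**
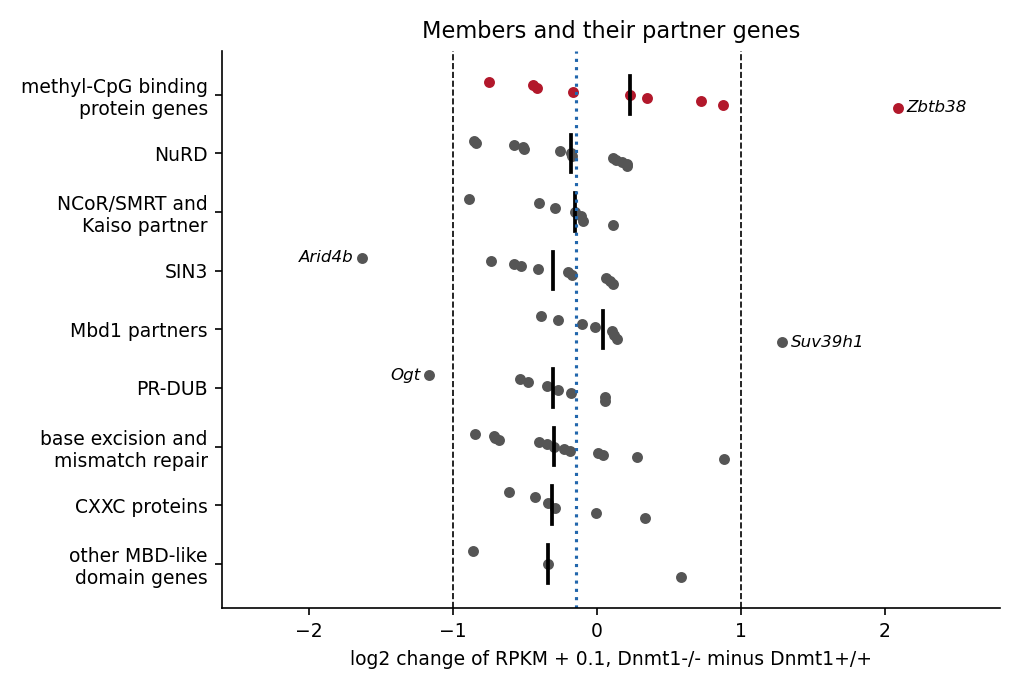
Log2 change of each gene (points) in the 9 methyl-CpG binding protein genes (red) and in 8 lists of partner genes (grey), with the median of each list as a black bar, dashed lines at 2-fold and a dotted line at the median of all genes kept, -0.14. Points past 2-fold are named, and Zbtb38, at 2.09, is the farthest to the right.

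The surroundings of the members were compared by the 3 nearest genes kept on either side. Of these 54 neighbours, 6 (11.1%) lay above and 5 (9.26%) below the 2-fold limits, where 8.47% and 10.9% of all genes kept did, and their median log2 change was -0.22. These shares are near those of all genes kept. The changes ran from -4.29 for Myo5b, a neighbour of Mbd1, to 6.84 for 2310002L13Rik, a neighbour of Mbd2 that was listed at 0 in Dnmt1+/+. Of the neighbours of Mbd5, 6 of 6 had a negative change, as 59.6% of all genes kept did, and their median was -0.97 while Mbd5 itself was at -0.75. These neighbours lay from 241 bp to 3835424 bp away, the latter for the entry that holds Zeb2, so not all of them are close to Mbd5. Among them Orc4, an origin recognition subunit gene, had 14.1 RPKM in Dnmt1+/+ and 7.03 in Dnmt1-/-. Acvr2a, an activin receptor gene, had 4.73 and 2.11. Both are listed with the same locus, which ends 241 bp from that of Mbd5, and were counted as separate neighbours. How reads were divided between their entries is not stated. Kif5c, a kinesin gene, was lowest of the 6 at 9.10 and 1.09 RPKM. Elsewhere, Rpl32 and Cand2 lay at the same distance from Mbd4, 31881 bp, and Ddit3 and Mars at the same distance from Mbd6, 1734 bp. These were also counted as separate neighbours, so the 54 are not all distinct loci.

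Of the 6 neighbours of Zbtb38, 3 had a positive and 3 a negative change. The gene next to its 5′ end, Acpl2, 70512 bp away, had 2.88 RPKM in Dnmt1+/+ and 10.3 in Dnmt1-/- (log2 change 1.81), and the next one, Spsb4, had 1.22 and 0.171 (log2 change -2.28). Chrnb1, a muscle acetylcholine receptor subunit gene whose locus starts 10 bp from that of Zbtb4, had 1.47 RPKM in Dnmt1+/+ and 4.99 in Dnmt1-/-. Next to Mbd4, Ift122 at a distance of 187 bp had 13.3 and 11.6 RPKM. No entry without a gene symbol lay within the locus of any of the 9 genes, and the entry of Dctn2 was the only other entry that overlapped one.

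**Figure D4:**
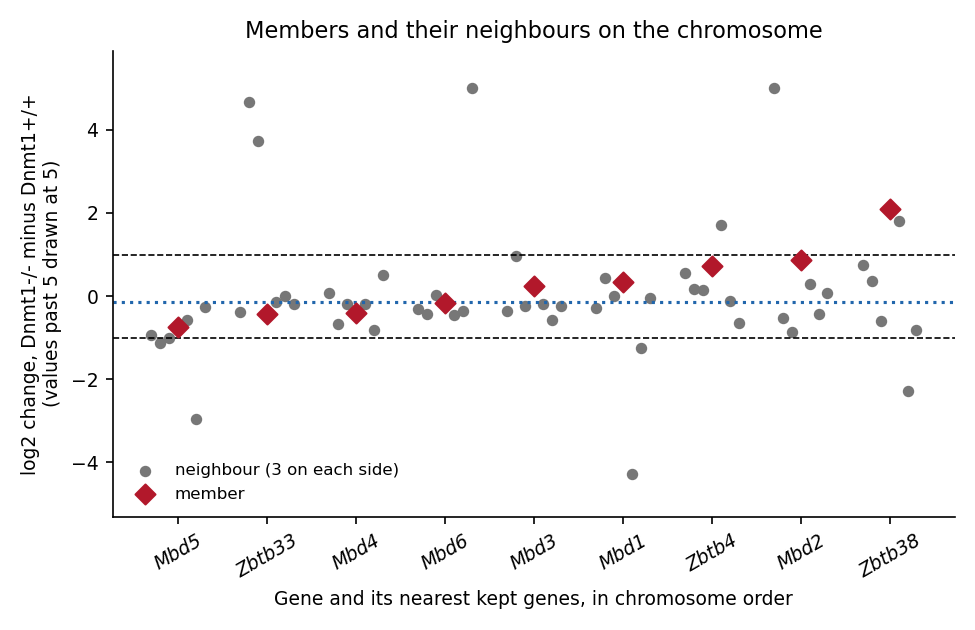
Log2 change of each of the 9 genes (red diamonds, ordered by their change) and of the 3 nearest genes kept on each side (grey points, in the order of the chromosome), with dashed lines at 2-fold and a dotted line at the median of all genes kept, -0.14. The neighbours of Mbd5 all lie under 0, and those of Zbtb38 lie on both sides of it.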

How the data were processed

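Per the labels and the study's methods, strand-specific mRNA-seq reads were mapped to mm9 with TopHat, transcripts were assembled with Cufflinks, and Cuffdiff gave the RPKM values that the authors deposited, 1 column per library, with a status per entry. Program versions, and any scaling between libraries beyond mapped reads, are not given in the sources used here. The columns named for wild-type and knock-out were taken as Dnmt1+/+ and Dnmt1-/-, as the study defines them.

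The log2(RPKM + 0.1) difference was computed for each entry. Genes were kept with status OK, a symbol and at least 1 RPKM in either library, which left 11244. Percentiles and shares refer to these. No test was made with 1 library per genotype. The members and lists were chosen with earlier results of these data known. All members, the highest gene of each list and each listed gene past 2-fold were to be named. The comparison of neighbouring genes, the sex-linked genes and the neighbours given by name were chosen after values were seen. So were Hdac1, Hdac2, Suv39h2, Setdb1, Atf7ip, Tdg, Fen1, Arid4a, Baz2b, Setdb2, Mbd3l1, Mbd3l2, Chd5, Asxl3 and Cxxc4. The computation of the log2 change was checked on simulated data with known large folds and little noise. This check does not bear on how reliable any change reported here is. Python 3.11.15, numpy 2.4.6, pandas 2.3.3 and matplotlib 3.10.9 were used.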

Additional observations from a re-analysis of the deposited data

How the results depend on the processing

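Pseudocounts of 1 and 0.01 RPKM, no pseudocount, no filter on low RPKM, a filter on the mean RPKM, entries of any status and summing of entries per symbol left the counts of members past 2-fold at 1 higher and 0 lower, and the median log2 change at 0.23. Relative to the median of all genes kept, Mbd2 joined Zbtb38, so that 2 members were more than 2-fold higher, and the members' median was 0.37. At a 1.5-fold threshold 3 members were higher and 1 lower. Without the joint entry of Zbtb38, an alternative chosen after seeing the data, 0 of 8 members were more than 2-fold higher and the median was 0.035. In 72 recomputed changes of single members, 71 kept their direction and their side of 2-fold, and the other was that of Mbd2. The settings on filtering, status and summing could not move a member's value, as each member has 1 entry with status OK that passed every filter. Only the pseudocounts and the subtraction of the median could change these values. No paired analysis was possible because each genotype has 1 library. The absence of replicates and of read counts limits every difference given here.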
